A study of Mus musculus with 12 samples.

Results

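The genes described here are 35 established targets of the transcription factor p53, grouped by role into p53 itself with its feedback partners, cell cycle arrest, cell death, DNA repair and other functions. They were looked up by name among the 18322 genes of a mouse oligonucleotide array, and 32 were found. Trp53, Bax and Fdxr were not analysed here. The arrays measured RNA from 3 polyclonal lines of IB10 (E14) mouse embryonic stem cells, made with lentiviral pLKO-puro vectors and puromycin and grown on gelatin in serum with LIF. The first line carried shKdm5c#2 and the second shKdm5c#1, 2 hairpins against the H3K4 demethylase Kdm5c, and the third carried a non-targeting control hairpin. Each line was grown as 4 independent cultures, A to D, and each culture was hybridised together with RNA of untreated IB10 cells as the shared reference. The sample was labelled with Cy3 in cultures A and C and with Cy5 in cultures B and D. All 3 lines went through infection and selection, which the IB10 reference did not, and each hairpin was present in 1 pooled line.

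p53 is held low in unstressed cells by Mdm2, a ubiquitin ligase that p53 itself switches on. When DNA damage or other stress stabilises p53, it binds sites made of a pair of similar half-sites and raises genes that halt the cell cycle, start apoptosis, repair DNA or restrain p53 again. Mouse embryonic stem cells are known to carry much p53 protein and to arrest poorly in the G1 phase through p21, the product of Cdkn1a.

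The values below are log2 ratios of a culture over the IB10 reference, taken from each gene's brightest probe, and log2 differences between lines from limma. A gene was called when its p-value, adjusted by Benjamini-Hochberg over all 18322 genes, was below 0.05. Because each hairpin has 1 pooled line, the p-values rest on culture-to-culture spread, and a hairpin effect and another difference between the lines cannot be told apart. Kdm5c read -0.69, -0.62, -0.75 and -0.65 in cultures A to D under shKdm5c#2, -0.62, -0.42, -0.81 and -0.63 under shKdm5c#1, and -0.01, 0.09, -0.01 and 0.00 under the control hairpin. Every knockdown culture lay below every control culture, and the lines stood at 61.7 and 64.1 percent of control for shKdm5c#2 and shKdm5c#1. The 12 embryonic stem cell markers were above background in all 12 cultures.

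Promoter windows of 300 bases around the annotated start were available from RefSeq (build GRCm38.p6) for 24 of the 32 measured genes. The p53 half-site by name is a palindromic pattern, searched without mismatch so that both strands are covered. It was present in at least 1 window of 10 of these 24 genes, or 41.7 percent. Of all 27025 genes with a window, 9.55 percent held it. Genes can have several windows, and by window the shares were 28.2 percent of 39 and 8.36 percent of all 32851. The 24 genes split into 12 that were lower with shKdm5c#2 than with control and 12 that were not, and 5 of each 12 held a half-site. Presence of the letters in this window thus did not separate the genes that fell from the others. A match describes the sequence and is no evidence of binding, and known p53 sites of several targets lie elsewhere, as in the first intron of Mdm2. The 5 windows below are shown because they hold half-sites in 3 genes that fell with shKdm5c#2 (Gadd45a, Mdm2, Ccng1), in 1 that rose (Ei24) and in 1 that was not called (Cdkn1a). Half-sites are in capitals, and the sequences run 5′ to 3′ on the strand of the gene.
Gadd45a: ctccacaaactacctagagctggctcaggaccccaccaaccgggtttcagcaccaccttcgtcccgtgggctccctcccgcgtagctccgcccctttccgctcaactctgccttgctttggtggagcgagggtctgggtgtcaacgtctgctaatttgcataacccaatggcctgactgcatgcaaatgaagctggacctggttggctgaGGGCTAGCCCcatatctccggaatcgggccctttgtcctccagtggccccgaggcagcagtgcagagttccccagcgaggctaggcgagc
Mdm2: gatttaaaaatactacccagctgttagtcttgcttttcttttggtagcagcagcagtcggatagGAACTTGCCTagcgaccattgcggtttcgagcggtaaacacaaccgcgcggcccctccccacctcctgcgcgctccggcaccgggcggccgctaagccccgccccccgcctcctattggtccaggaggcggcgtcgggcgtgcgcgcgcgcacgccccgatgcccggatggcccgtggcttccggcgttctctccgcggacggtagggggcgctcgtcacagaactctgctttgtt
Ccng1: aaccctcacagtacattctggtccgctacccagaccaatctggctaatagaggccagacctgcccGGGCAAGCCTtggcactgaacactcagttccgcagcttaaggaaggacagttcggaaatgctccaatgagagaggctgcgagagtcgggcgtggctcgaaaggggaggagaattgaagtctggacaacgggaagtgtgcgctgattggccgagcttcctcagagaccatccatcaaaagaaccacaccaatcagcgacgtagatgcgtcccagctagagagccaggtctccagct
Ei24: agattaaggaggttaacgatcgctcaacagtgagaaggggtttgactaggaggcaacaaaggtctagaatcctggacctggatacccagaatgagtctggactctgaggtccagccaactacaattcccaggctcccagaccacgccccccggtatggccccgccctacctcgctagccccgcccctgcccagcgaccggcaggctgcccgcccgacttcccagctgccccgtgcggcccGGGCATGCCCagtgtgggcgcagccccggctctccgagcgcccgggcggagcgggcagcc
Cdkn1a: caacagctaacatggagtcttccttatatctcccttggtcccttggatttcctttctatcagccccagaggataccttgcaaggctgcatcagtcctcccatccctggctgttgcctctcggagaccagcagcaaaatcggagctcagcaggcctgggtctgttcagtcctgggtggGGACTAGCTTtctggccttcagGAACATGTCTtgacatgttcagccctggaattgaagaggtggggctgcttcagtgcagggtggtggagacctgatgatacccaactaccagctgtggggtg
The Gadd45a window lies at chr6:67037358-67037657 on the minus strand, with its half-site GGGCTAGCCC beginning 40 bases before the start of transcription. The Mdm2 window is chr10:117710709-117711008 (minus strand), where GAACTTGCCT begins 186 bases before the start. In the Ccng1 window, chr11:40755237-40755536 (minus strand), GGGCAAGCCT begins 185 bases before the start. The Ei24 window, chr9:36797285-36797584 (minus strand), holds GGGCATGCCC beginning 10 bases before the start. The Cdkn1a window, chr17:29090729-29091028 (plus strand), belongs to the more upstream of the annotated starts and holds GGACTAGCTT and GAACATGTCT, which begin 73 and 51 bases before it. It was also the only window of these genes with the paired core CATGNNNNNNCATG, which overlaps the second half-site and is found in 0.712 percent of all 32851 windows.

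With shKdm5c#2, 16 of the 32 genes were lower and 2 were higher than with the control hairpin, and 14 were not called. The share of lower genes was 50 percent, against 12.3 percent of all genes, and the share of higher genes was 6.25 percent, against 9.94 percent. The median log2 difference was -0.13 over the 32 genes and -0.00 over all genes. With shKdm5c#1, 3 genes were lower and 3 were higher than with control, 9.38 percent each, against 9.62 and 8.99 percent of all genes, so both shares were near the background, and none of these 6 calls was kept under every alternative tried. Both comparisons use the same control cultures.

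The hairpins themselves were compared directly. Relative to shKdm5c#1, shKdm5c#2 had 13 lower genes, 40.6 percent against 10.1 percent of all genes, and 1 higher gene, 3.12 percent against 8.49 percent. Of the 16 genes that were lower with shKdm5c#2 than with control, 12 were also lower than with shKdm5c#1. Both comparisons use the same shKdm5c#2 cultures, so part of this overlap is built in, and no share over all genes was set beside it.

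**Figure D1:**
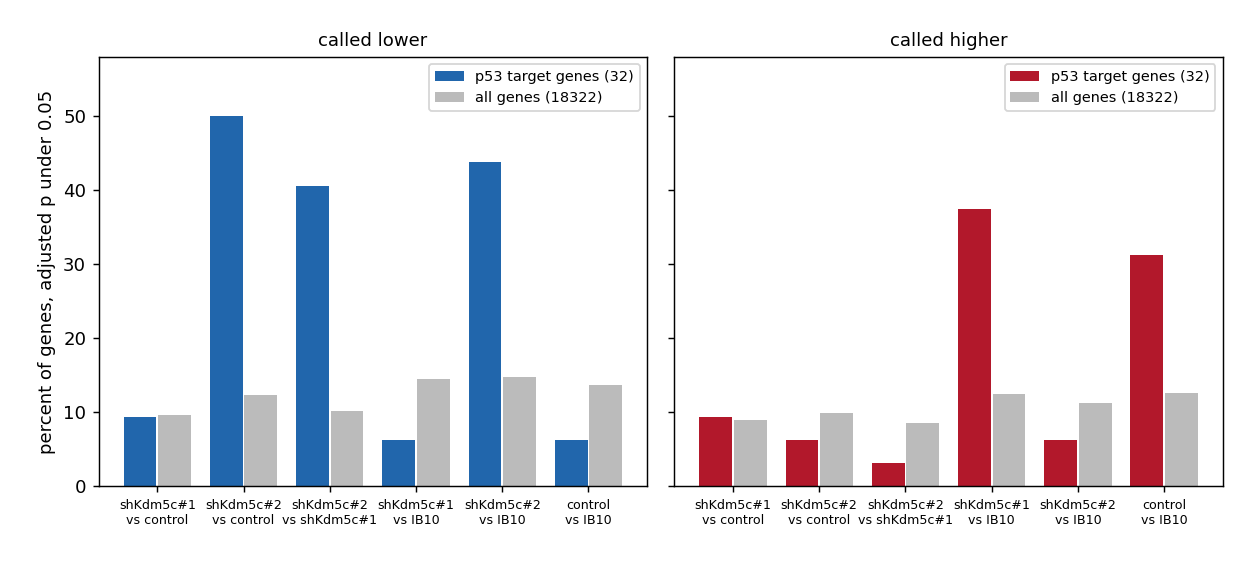
Percent of genes called lower (left panel) and higher (right panel) in 6 comparisons, for the 32 measured p53 target genes (coloured bars) and all 18322 genes (grey bars). The tallest bars for lower calls are those of shKdm5c#2 against control, shKdm5c#1 and IB10, and those for higher calls are shKdm5c#1 and control against IB10.

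In individual cultures, 12 of the 32 genes had all 4 shKdm5c#2 cultures below all 4 control cultures, a separation seen in 9.32 percent of all genes. The reverse was seen for 2 members, Ei24 and Bid, and for 7.58 percent of all genes. The 5 largest falls with shKdm5c#2, those of Plk3, Gadd45a, Plk2, Perp and Mdm2, were the only calls against control, and likewise against shKdm5c#1, that remained when arrays were centred on their median in place of loess normalization. Under median centring 2.4 percent of all genes were called lower with shKdm5c#2 than with control. In the cultures with the sample in Cy3 alone 12 of the 32 genes were called lower, against 8.47 percent of all genes, and in those with the sample in Cy5 alone 8, against 4.09 percent. Apart from median centring and the single dyes, 11 of the 18 calls against control were kept under every alternative, and those of Sesn2, Zmat3, Pmaip1, Apaf1, Phlda3, Polk and Steap3 were not.

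**Figure D2:**
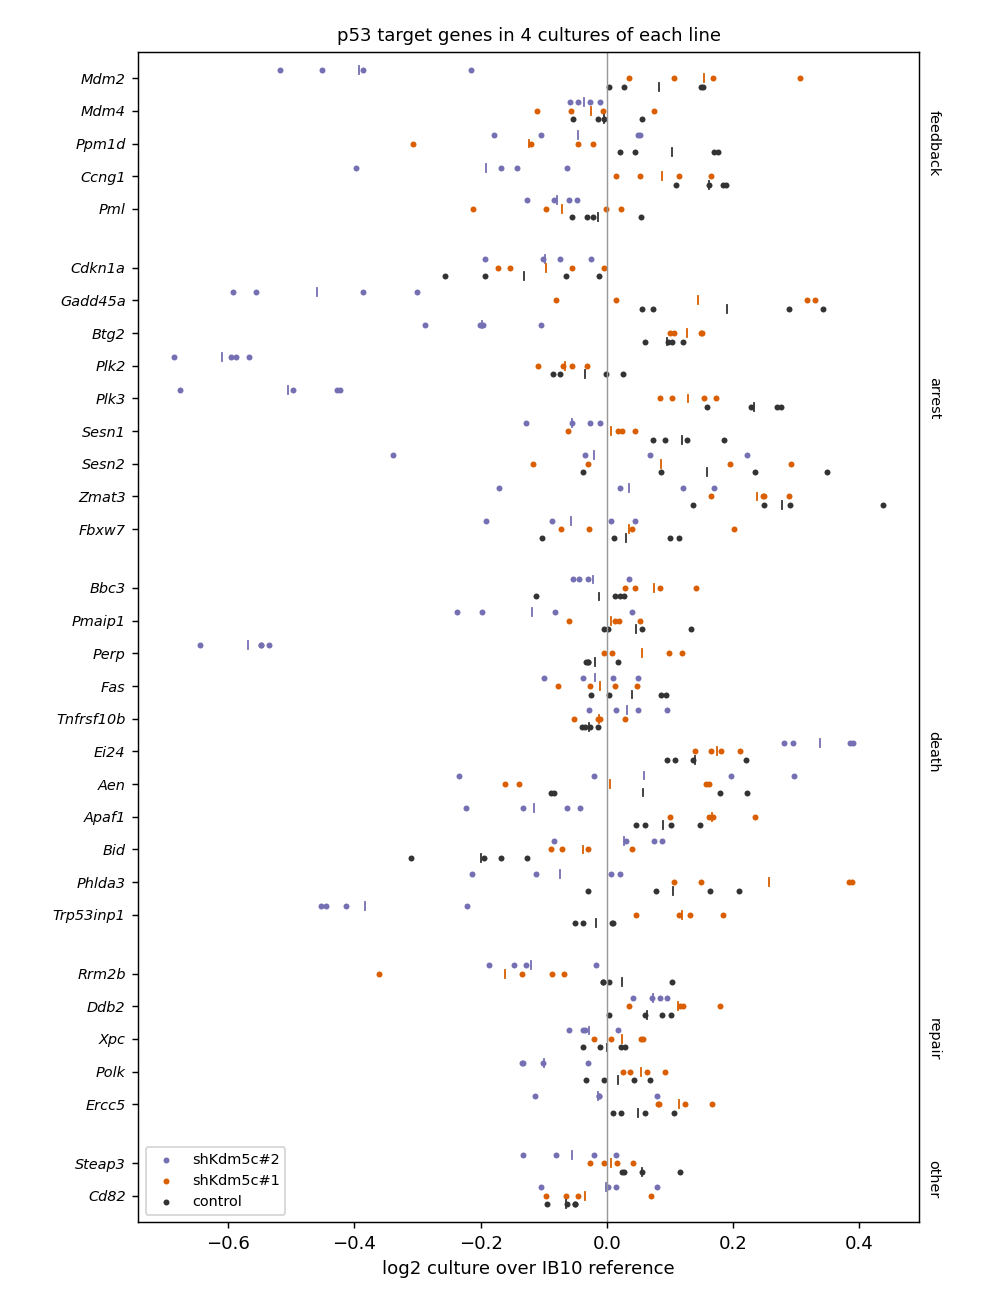
Log2 ratio over the IB10 reference (horizontal axis) of each p53 target gene (rows, by role), with a point for each of 4 cultures per line and a vertical tick at the line's mean. The shKdm5c#2 points of Plk3, Gadd45a, Plk2, Perp and Mdm2 lie apart to the left, while the 3 lines overlap for Cdkn1a.

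The arrest genes held the largest falls: 7 of 9 were lower with shKdm5c#2 than with control, with a median of -0.24 over the 9, and 1 was lower with shKdm5c#1. Plk3, a stress-responsive polo-like kinase, read -0.50, -0.42, -0.43 and -0.68 in cultures A to D under shKdm5c#2, 0.17, 0.15, 0.10 and 0.08 under shKdm5c#1, and 0.27, 0.28, 0.16 and 0.23 under control. All shKdm5c#2 cultures were far below the other 8, and Plk3 stood at 59.9 percent of control (log2 difference -0.74, standard error 0.05, adjusted p = 1.6e-08) and at 64.4 percent of shKdm5c#1. The related kinase Plk2 read -0.59, -0.60, -0.57 and -0.69 under shKdm5c#2, -0.06, -0.03, -0.07 and -0.11 under shKdm5c#1, and -0.00, 0.03, -0.09 and -0.07 under control. Its cultures differed little within a line, and it stood at 67.1 percent of control (-0.58, standard error 0.04, adjusted p = 9.27e-09). Gadd45a encodes a small protein that links DNA damage to growth arrest and stress kinases. It read -0.39, -0.59, -0.30 and -0.56 under shKdm5c#2, 0.32, -0.08, 0.33 and 0.01 under shKdm5c#1, and 0.29, 0.06, 0.34 and 0.07 under control. Within each line Gadd45a was higher in the 2 Cy3 cultures than in the 2 Cy5 cultures, yet the shKdm5c#2 cultures overlapped with no other line. The difference from control was -0.65 (standard error 0.04, adjusted p = 2.21e-09), with -0.66 in the Cy3 cultures and -0.64 in the Cy5 cultures.

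Btg2, an antiproliferative cofactor of mRNA deadenylation, read -0.20, -0.29, -0.20 and -0.10 under shKdm5c#2, 0.10, 0.11, 0.15 and 0.15 under shKdm5c#1, and 0.10, 0.06, 0.10 and 0.12 under control. The shKdm5c#2 cultures were again the lowest, and Btg2 fell by 0.29 against control (adjusted p = 2.49e-05). Zmat3, an RNA-binding zinc finger protein, fell by 0.24 with shKdm5c#2 (adjusted p = 0.00805), though culture D at 0.17 overlapped with control culture B at 0.14. Its call against shKdm5c#1 (-0.20, adjusted p = 0.0285) was lost without culture A or B of shKdm5c#2 or without culture B, C or D of shKdm5c#1 (adjusted p = 0.055 to 0.0997).

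The sestrins are stress-induced proteins that restrain mTORC1 signalling. Sesn1 read -0.03, -0.01, -0.06 and -0.13 with shKdm5c#2 and 0.09, 0.19, 0.13 and 0.07 with control, a difference of -0.17 (adjusted p = 0.00266). With shKdm5c#1 it read 0.02, -0.06, 0.05 and 0.02, a difference of -0.11 from control (adjusted p = 0.0476) that was not called in 10 of the 12 fits that left out 1 culture, the exceptions being those without culture B or D of shKdm5c#2 (adjusted p = 0.0539 to 0.164 in the 10). Sesn1 was the 1 gene called lower in both lines, and the lines did not differ detectably (95 percent interval of the difference -0.14 to 0.02). Sesn2 varied from -0.34 to 0.22 with shKdm5c#2 and from -0.04 to 0.35 with control. Its ranges overlapped, and its call (-0.18, adjusted p = 0.0371) was lost without culture A or D of shKdm5c#2 or without culture A, B or D of control (adjusted p = 0.0525 to 0.118).

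Cdkn1a, which encodes the cyclin-dependent kinase inhibitor p21 and is the best-known p53 target, did not follow the other arrest genes. It read -0.02, -0.10, -0.07 and -0.19 under shKdm5c#2, -0.17, -0.15, -0.01 and -0.05 under shKdm5c#1, and -0.06, -0.01, -0.19 and -0.26 under control, so all 3 lines overlapped. The difference from control was 0.03 for shKdm5c#2 (95 percent interval -0.08 to 0.15, adjusted p = 0.753) and 0.03 for shKdm5c#1 (-0.08 to 0.15, adjusted p = 0.744). Its raw signal averaged 216, and its probe was above background in all cultures. Fbxw7, the substrate receptor of a ubiquitin ligase for cyclin E, was not called either (-0.09 with shKdm5c#2, adjusted p = 0.15).

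Among the 5 measured feedback genes, Mdm2 and Ccng1 fell with shKdm5c#2 and none rose. Mdm2 read -0.21, -0.45, -0.39 and -0.52 under shKdm5c#2, 0.11, 0.17, 0.31 and 0.04 under shKdm5c#1, and 0.15, 0.03, 0.15 and 0.00 under control. The shKdm5c#2 cultures lay apart from both other lines, at 71.9 percent of control (-0.48, standard error 0.05, adjusted p = 1.92e-06) and 68.5 percent of shKdm5c#1 (-0.55, adjusted p = 6.2e-07). Ccng1, a cyclin that recruits a phosphatase to activate Mdm2, was the brightest of the 32 probes. It read -0.14, -0.40, -0.06 and -0.17 under shKdm5c#2, 0.16, 0.01, 0.11 and 0.05 under shKdm5c#1, and 0.16, 0.11, 0.18 and 0.19 under control. Culture B was the lowest of each line. The shKdm5c#2 cultures were all below those of both other lines, which overlapped, with a difference of -0.35 from control (adjusted p = 3.8e-05) and -0.28 from shKdm5c#1 (adjusted p = 0.000484).

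Ppm1d, a phosphatase that switches off p53 and its kinases, was lower with shKdm5c#1 than with control (-0.23, standard error 0.05, adjusted p = 0.00676), at -0.04, -0.31, -0.02 and -0.12 against 0.18, 0.05, 0.17 and 0.02. No shKdm5c#1 culture reached the lowest control culture, though the call was lost without the dye term (adjusted p = 0.0595). With shKdm5c#2 its difference of -0.15 was not called (adjusted p = 0.0625), and the hairpins differed by 0.08 (95 percent interval -0.04 to 0.19). Mdm4, an inhibitor of p53 related to Mdm2, and Pml, the scaffold of nuclear bodies, were not called in either line by their brightest probes, with differences of -0.03 and -0.07 for shKdm5c#2 and of -0.02 and -0.06 for shKdm5c#1.

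The 11 measured cell death genes moved in both directions with shKdm5c#2, 5 lower and 2 higher. Perp, a desmosome and apoptosis protein of the cell membrane, read -0.54, -0.55, -0.55 and -0.64 under shKdm5c#2, 0.12, 0.01, 0.10 and -0.00 under shKdm5c#1, and 0.02, -0.03, -0.03 and -0.03 under control. The shKdm5c#2 cultures were all below the other 8, and Perp stood at 68.3 percent of control (-0.55, standard error 0.03, adjusted p = 3.45e-09). Trp53inp1, a stress protein of nuclear bodies and autophagy, read -0.41, -0.45, -0.22 and -0.45 under shKdm5c#2, 0.18, 0.05, 0.13 and 0.11 under shKdm5c#1, and 0.01, -0.05, -0.04 and 0.01 under control. The 3 lines did not overlap, with shKdm5c#2 below control by 0.37 on the log2 scale (adjusted p = 8.05e-06) and shKdm5c#1 above it by 0.14 (adjusted p = 0.0337). The rise with shKdm5c#1 was not called in 6 of the 12 fits that left out 1 culture, namely A, C or D of shKdm5c#1 or A, B or C of control (adjusted p = 0.0544 to 0.119).

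Phlda3, an inhibitor of Akt, had the same pattern of signs. It read 0.01, -0.21, 0.02 and -0.11 under shKdm5c#2, 0.38, 0.15, 0.39 and 0.11 under shKdm5c#1, and 0.21, -0.03, 0.16 and 0.08 under control. The ranges of neighbouring lines overlapped before the dye was taken into account, and in the fit with its dye term Phlda3 was lower with shKdm5c#2 (-0.18, adjusted p = 0.00174) and higher with shKdm5c#1 (0.15, adjusted p = 0.0078). Without the dye term neither call was made (adjusted p = 0.171 and 0.304), while the difference between the hairpins of -0.33 (adjusted p = 7.25e-06) was called in both fits. Apaf1, the core of the apoptosome, read -0.13, -0.22, -0.06 and -0.04 under shKdm5c#2, 0.24, 0.10, 0.17 and 0.16 under shKdm5c#1, and 0.15, 0.05, 0.10 and 0.06 under control. It was below zero in every shKdm5c#2 culture and above zero in the other 8, with a difference of -0.20 from control (adjusted p = 0.00112). Pmaip1, which encodes the BH3-only protein Noxa, fell by 0.17 with shKdm5c#2 (adjusted p = 0.0278). Its cultures ranged from -0.24 to 0.04 with shKdm5c#2 and from -0.00 to 0.13 with control, and the call was lost without culture A or D of shKdm5c#2 or without culture A, B or D of control (adjusted p = 0.051 to 0.0898).

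Ei24 and Bid went the other way. Ei24, a protein of the endoplasmic reticulum first found as induced by etoposide, read 0.39, 0.30, 0.39 and 0.28 under shKdm5c#2, 0.21, 0.17, 0.18 and 0.14 under shKdm5c#1, and 0.14, 0.10, 0.22 and 0.11 under control. The shKdm5c#2 cultures were the highest, by 0.20 over control (standard error 0.03, adjusted p = 0.000173) and 0.16 over shKdm5c#1 (adjusted p = 0.00124). Bid, the BH3-only protein that links death receptors to mitochondria, read 0.03, -0.08, 0.07 and 0.09 under shKdm5c#2, -0.07, -0.03, 0.04 and -0.09 under shKdm5c#1, and -0.17, -0.31, -0.13 and -0.19 under control. It was the 1 gene called higher in both lines, by 0.23 with shKdm5c#2 (adjusted p = 0.000896) and 0.16 with shKdm5c#1 (adjusted p = 0.013), and the control cultures were the lowest. The call for shKdm5c#1 was lost without its culture B or C or without control culture B (adjusted p = 0.0501 to 0.0513). The remaining death genes, Bbc3 (the BH3-only protein Puma), the death receptors Fas and Tnfrsf10b, and the exonuclease Aen, were not called with either hairpin against control, with differences of -0.06 to 0.06 for shKdm5c#2 and of -0.05 to 0.09 for shKdm5c#1.

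The repair genes and the others changed little. Polk, a translesion DNA polymerase, was the 1 repair gene of 5 that was called with shKdm5c#2 (-0.12, adjusted p = 0.0242), and the call was lost without culture B or D of shKdm5c#2 or of control (adjusted p = 0.0611 to 0.0755). Its difference was -0.05 in the Cy3 cultures and -0.19 in the Cy5 cultures. Rrm2b, the p53-inducible subunit of ribonucleotide reductase, read -0.13, -0.15, -0.02 and -0.19 under shKdm5c#2, -0.09, -0.36, -0.13 and -0.07 under shKdm5c#1, and -0.01, -0.01, 0.00 and 0.10 under control. All 8 knockdown cultures were below the control cultures, and the difference passed the test with shKdm5c#1 (-0.19, adjusted p = 0.0273) but not with shKdm5c#2 (-0.14, adjusted p = 0.0797), while the hairpins differed by 0.04 (95 percent interval -0.08 to 0.16). The call was lost without culture B or C of shKdm5c#1 or culture B or D of control (adjusted p = 0.0519 to 0.109). It was also lost without the dye term (adjusted p = 0.0777) and by the mean over probes (-0.07, adjusted p = 0.197). The dimmer Rrm2b probe read 0.05 with shKdm5c#1 and 0.01 with shKdm5c#2 against control (adjusted p = 0.44 and 0.92 over all probes). Ercc5, an endonuclease of nucleotide excision repair, was lower with shKdm5c#2 than with shKdm5c#1 (-0.13, adjusted p = 0.0201) and was not called against control in either line. That call was lost without culture A or D of shKdm5c#2 or culture A of shKdm5c#1 (adjusted p = 0.0539 to 0.0616).

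The damage recognition genes Ddb2 and Xpc were not called in any comparison of lines (0.01 and -0.03 with shKdm5c#2 against control). Steap3, a ferrireductase, fell by 0.11 with shKdm5c#2 (adjusted p = 0.0168), a call lost without culture A of shKdm5c#2 or culture B of control (adjusted p = 0.0562 and 0.0503). Cd82, a tetraspanin, was not called, and its probe was above background in 2 of 4 cultures with shKdm5c#2, 3 of 4 with shKdm5c#1 and 4 of 4 with control. Both had the weakest raw signals of the set, 104 and 99.

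**Figure D3:**
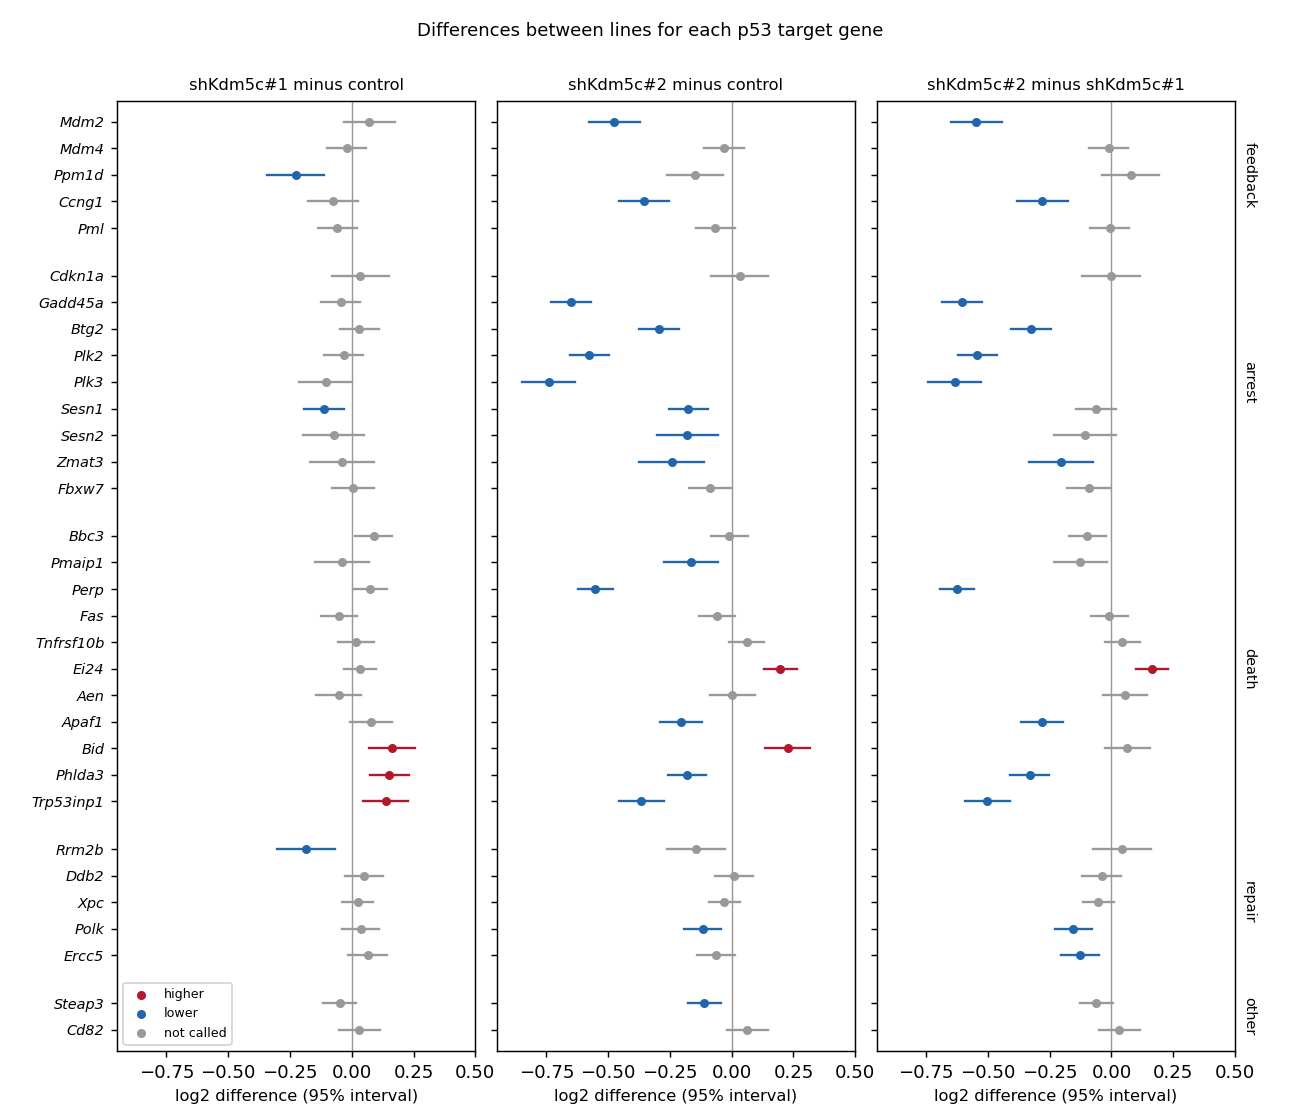
Log2 difference (horizontal axis, with its 95 percent interval from limma) of each p53 target gene (rows, by role) in 3 comparisons of lines, coloured by call at an adjusted p below 0.05. Blue points, called lower, run from -0.11 to -0.74 in the panel of shKdm5c#2 minus control, while no gene in the panel of shKdm5c#1 minus control passes -0.23.

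Set against the IB10 reference, the shKdm5c#1 and control lines had more genes called higher than lower, and the shKdm5c#2 line the reverse. The reference is 1 RNA, so the spread between IB10 cultures is left out of these tests. With shKdm5c#1, 12 genes were higher and 2 lower than in IB10 (37.5 and 6.25 percent, against 12.5 and 14.5 percent of all genes), and with the control hairpin 10 were higher and 2 lower (31.2 and 6.25 percent, against 12.6 and 13.7 percent). With shKdm5c#2, 2 were higher and 14 lower (6.25 and 43.8 percent, against 11.3 and 14.8 percent). Under median centring 7 genes were called in either direction with shKdm5c#2, 0 with shKdm5c#1 and 1 with control, against 6.57, 4.06 and 5.38 percent of all genes. In the cultures with the sample in Cy5 alone these counts were 11, 1 and 2, against 13.6, 15.8 and 14.9 percent. With the sample in Cy3 alone they were 13, 19 and 14, against 27.9, 28.5 and 25.2 percent. The excess of called genes with shKdm5c#1 and control was thus not seen in the Cy5 cultures. Of the 16 genes lower with shKdm5c#2 than with control, 12 were also lower than in IB10 and the other 4, Sesn1, Sesn2, Zmat3 and Steap3, were not called against it. The 16 were chosen by the difference between these same shKdm5c#2 and control cultures, so counts among them against IB10 are partly built in. For 9 of the 16 the control line itself was above IB10, as for Zmat3 at 0.28, Plk3 at 0.23 and Gadd45a at 0.19. Plk2 and Perp did not have this offset, with -0.03 and -0.02 in the control line (adjusted p = 0.414 and 0.653) and -0.61 and -0.57 in the shKdm5c#2 line (adjusted p = 5.65e-11 and 2.76e-11). Bid stood at 0.03 with shKdm5c#2 and -0.04 with shKdm5c#1 over IB10, neither called, and at -0.20 with the control hairpin (adjusted p = 0.0001), so its rise in both lines was measured against a control line below IB10. Ei24 was above IB10 in all 3 lines, at 0.34, 0.17 and 0.14 with shKdm5c#2, shKdm5c#1 and the control hairpin.

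Of the 32 genes, 19 had further, dimmer probes. Plk2, Plk3, Gadd45a and Perp had 1 probe each. The 16 genes lower with shKdm5c#2 than with control had 13 further probes on 9 genes, of which 3 were called lower and none higher, against 8.14 and 8.77 percent of all 41174 probes. The second Mdm2 probe fell with shKdm5c#2 (-0.26, adjusted p = 3.4e-05 over all probes), as did a dimmer probe of Btg2 (-0.15, adjusted p = 0.0067) and of Sesn1 (-0.14, adjusted p = 0.019). The other dimmer probe of Btg2 read -0.04 (adjusted p = 0.55), those of Sesn1 -0.09 and -0.07 (adjusted p = 0.35 and 0.30), and those of Apaf1 -0.06 and 0.04 (adjusted p = 0.50 and 0.62). Further probes also gave smaller values than the brightest: the second Ccng1 probe, itself bright at a raw signal of 3674, read -0.09 (adjusted p = 0.15), the second Sesn2 probe 0.02, and the dim second Zmat3 probe 0.00. The 2 Polk probes had raw signals of 141 and 128, and the second read -0.02 (adjusted p = 0.88). By the mean over its probes the Polk call was lost (-0.07, adjusted p = 0.0871). The second Trp53inp1 probe read 0.01 with shKdm5c#2 and 0.29 with shKdm5c#1 against control (adjusted p = 0.89 and 2.3e-05). Both Trp53inp1 probes thus placed shKdm5c#2 below shKdm5c#1, with differences of -0.50 and -0.28, and disagreed on where control lay. Among genes whose brightest probe was not called, a dimmer Mdm4 probe was lower with shKdm5c#2 (-0.15 against control and -0.17 against shKdm5c#1, adjusted p = 0.014 and 0.0077), and a dimmer Pml probe was lower with shKdm5c#1 than with control (-0.16, adjusted p = 0.036). The dimmer Fbxw7 probe was lower with shKdm5c#2 than with shKdm5c#1 (-0.15, adjusted p = 0.011) and was not called against control (-0.09, adjusted p = 0.10). Probes of 1 gene may read different transcripts, which was not tested.

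**Figure D4:**
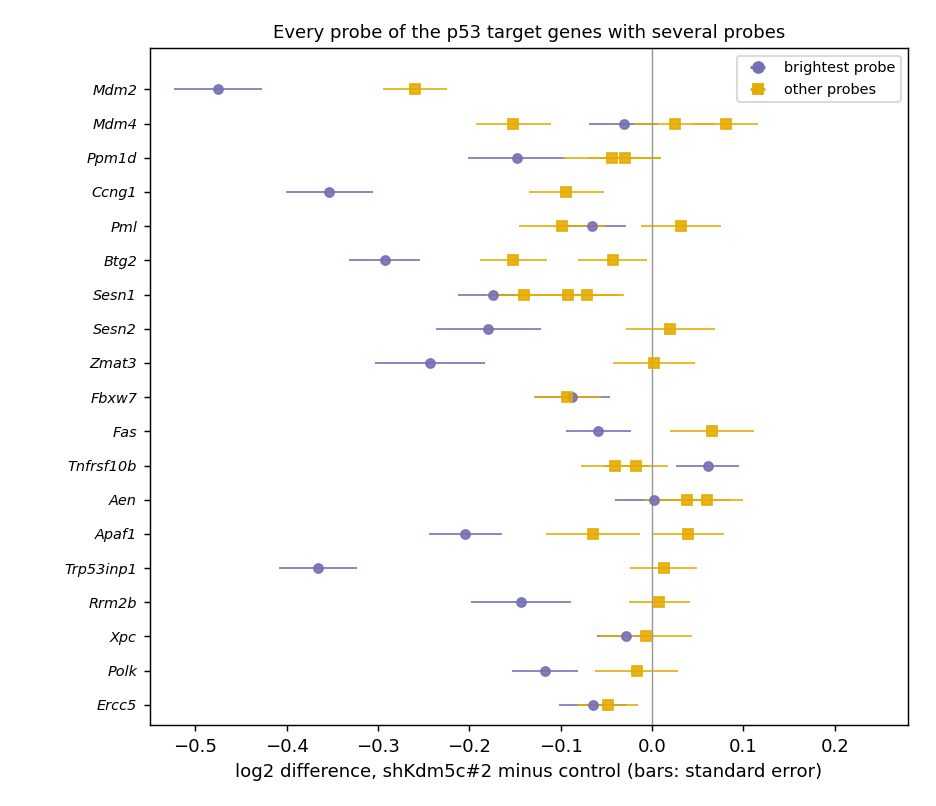
Log2 difference of shKdm5c#2 minus control (horizontal axis, bars for the standard error) for every probe of the 19 p53 target genes with several probes (rows). Circles mark the brightest probe, on which the calls rest, and squares the other probes, most of which lie nearer to 0, as at -0.26 for Mdm2 and -0.09 for Ccng1.

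Further lists around p53 were read the same way. Of 36 measured further p53 targets, 10 were lower and 7 higher with shKdm5c#2 than with control, and 1 was lower and 9 higher with shKdm5c#1, with medians of -0.04 and 0.02. These are 27.8 and 19.4 percent with shKdm5c#2, against 12.3 and 9.94 percent of all genes, and 2.78 and 25 percent with shKdm5c#1, against 9.62 and 8.99 percent. Against shKdm5c#1, shKdm5c#2 had 11 lower and 2 higher, 30.6 and 5.56 percent, against 10.1 and 8.49 percent of all genes. The control line itself had 13 of the 36 lower than IB10 and 5 higher (36.1 and 13.9 percent, against 13.7 and 12.6 percent). With shKdm5c#1, 8 were lower and 10 higher than in IB10 (22.2 and 27.8 percent, against 14.5 and 12.5 percent). With shKdm5c#2, 11 were lower and 4 higher (30.6 and 11.1 percent, against 14.8 and 11.3 percent). The comparisons with control were thus made against a control line that itself lay apart from IB10. Rap2b, a small GTPase, fell by 0.39 with shKdm5c#2 (adjusted p = 1.89e-05), while Igfbp3, which binds insulin-like growth factors, rose by 1.06 with shKdm5c#2 and by 0.73 with shKdm5c#1 (adjusted p = 1.37e-10 and 3.05e-08). Nupr1, a stress-induced chromatin protein, rose by 1.02 with shKdm5c#1 and was lower with shKdm5c#2 than with shKdm5c#1 by 0.78 on the log2 scale (adjusted p = 1.42e-09). Against control, the largest changes in this list were thus rises, unlike in the set of 32.

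Among 30 measured regulators of p53, 3 were lower and 6 higher with shKdm5c#2, and 2 were lower and 10 higher with shKdm5c#1. The lower genes, 10 and 6.67 percent, were near or below the shares over all genes of 12.3 and 9.62 percent. The higher genes were 20 and 33.3 percent, against 9.94 and 8.99 percent of all genes. The damage kinase Atm rose by 0.23 and 0.32 (adjusted p = 0.00656 and 0.000673), and Smyd2, a lysine methyltransferase that acts on p53, fell by 0.38 and 0.35 (adjusted p = 1.09e-05 and 3.68e-05) with shKdm5c#2 and shKdm5c#1. Cdkn2a, whose Arf product inhibits Mdm2, was lower with shKdm5c#2 than with shKdm5c#1 (-0.35, adjusted p = 0.000329) and fell by 0.17 against control (adjusted p = 0.0454). Of 19 measured cell cycle genes that p53 lowers through p21, 2 were lower and 4 higher with shKdm5c#2 than with control, and 2 were lower and 2 higher with shKdm5c#1. The lower genes were 10.5 percent in each line, near the shares over all genes of 12.3 and 9.62 percent. The higher genes were 21.1 and 10.5 percent, against 9.94 and 8.99 percent of all genes. Against shKdm5c#1, shKdm5c#2 had 1 lower and 7 higher (5.26 and 36.8 percent, against 10.1 and 8.49 percent of all genes). Top2a and Mki67 rose with shKdm5c#2 (0.35 and 0.25, adjusted p = 6.76e-05 and 0.000573) and Ect2 and Plk4 fell (-0.15 and -0.14, adjusted p = 0.00719 and 0.0144). With shKdm5c#1, Aurkb and Birc5 fell (-0.36 for each, adjusted p = 0.000126 and 0.000227) and Cdk1 and Bub1 rose (0.17 and 0.10, adjusted p = 0.0199 and 0.0466).

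Markers of other cell types also differed between the lines. Over all genes, 12.3 percent were lower and 9.94 percent higher with shKdm5c#2 than with control, and 9.62 and 8.99 percent with shKdm5c#1. Against IB10, 14.8 percent of all genes were lower and 11.3 percent higher with shKdm5c#2. These shares were 14.5 and 12.5 percent with shKdm5c#1, and 13.7 and 12.6 percent with control. Of 18 extraembryonic endoderm markers, 10 were lower with shKdm5c#2 and 9 with shKdm5c#1 than with control (55.6 and 50 percent), and none was higher. Their signal, summed after local background was subtracted, ranged from 3478 to 5188, 4342 to 6994 and 4884 to 7266 with shKdm5c#2, shKdm5c#1 and control. The summed signals below were computed in the same way. The control line itself had 11 of them higher than IB10 and 2 lower (61.1 and 11.1 percent). With shKdm5c#1, 2 were higher and 2 lower than in IB10 (11.1 percent each), near the shares over all genes. With shKdm5c#2, 1 was higher and 8 lower (5.56 and 44.4 percent). Of 12 trophectoderm markers, 1 was lower and 5 were higher with shKdm5c#2 (8.33 and 41.7 percent), and 7 were higher with shKdm5c#1 (58.3 percent). Their summed signals were 5163 to 6895, 6959 to 9821 and 3083 to 5219. The control line had 8 of them lower than IB10 and 1 higher (66.7 and 8.33 percent). With shKdm5c#1, 2 were lower and 3 higher than in IB10 (16.7 and 25 percent), and with shKdm5c#2, 7 were lower and 2 higher (58.3 and 16.7 percent). Both lists were thus compared with a control line that itself lay apart from IB10. Of 16 fibroblast markers, 6 and 5 were lower (37.5 and 31.2 percent) and 2 and 3 higher (12.5 and 18.8 percent). Their summed signals were 9505 to 13911, 10245 to 13487 and 7967 to 13545. Of the 12 embryonic stem cell markers, 3 were lower and 2 higher with shKdm5c#2 (25 and 16.7 percent), with a median of -0.03 over the list. Among them were Dppa5a at -0.51, Nanog at -0.38 and Lin28a at 0.40 (adjusted p = 0.000475, 0.000341 and 1.77e-06). With shKdm5c#1, 2 were lower and 2 higher (16.7 percent each). No marker was below background in every culture of a line. Their part in the changes of p53 target genes was not tested, and in bulk RNA fewer cells of a type and less RNA per cell cannot be told apart.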

How the data were processed

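RNA of 12 cultures was measured on 12 arrays of 2 colours. The raw files deposited by the authors give, per the file headers, spot and local background intensity for Cy5 and Cy3, without background subtraction or normalization. Derived files hold intensity normalized by the authors, by a method not given in the sources used here, and the deposited table holds log2 of these Cy5 over Cy3 signals, used as an alternative.

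From the raw mean intensities, background was removed with limma 3.58.1 (R 4.3.3, normexp, offset 50), ratios were loess-normalized within arrays with control spots at weight 0, and signs were turned to sample over reference. The brightest probe by mean raw signal stood for each of 18322 genes. limma fitted all 12 arrays with 3 line coefficients and 1 for dye, and p-values were adjusted by Benjamini-Hochberg over all genes. The script was tested on simulated data. Every listed gene found by symbol or RefSeq synonym is named, with Kdm5c. From some of the other lists, genes among the 2 with the largest calls in each direction are named. Per array, 84.4 to 96.4 percent of gene spots exceeded background by 2 background SDs, residual SDs per array were 0.05 to 0.08, and the 4 cultures per line limit the precision. The genes and lists were chosen with earlier results of these data known. Plots used matplotlib 3.10.9 and Python 3.11.15.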

Additional observations from a re-analysis of the deposited data

Results flagged for a closer look

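Single cultures stood apart from the other 3 of their line in 5 of 96 groups of 4. Each group mixes both dyes and the values are not adjusted for dye, so no chance rate was set beside this count. Perp read -0.64 in culture D of shKdm5c#2, against -0.55 to -0.54 in the other 3, and 0.018 in control culture A, against -0.03 in each of the other 3. Trp53inp1 read -0.22 in culture C of shKdm5c#2, against -0.45 to -0.41. In control culture D, Bbc3 read -0.11, against 0.01 to 0.03, and Rrm2b read 0.10, against -0.01 to 0.00.

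The lines with the 2 hairpins differed, by the test of shKdm5c#2 minus shKdm5c#1, for 14 of the 32 genes, 13 lower and 1 higher, against 10.1 and 8.49 percent of all genes. The arrest genes differed by -0.63 for Plk3, -0.60 for Gadd45a, -0.54 for Plk2, -0.32 for Btg2 and -0.20 for Zmat3. The feedback genes Mdm2 and Ccng1 differed by -0.55 and -0.28. The death genes differed by -0.62 for Perp, -0.50 for Trp53inp1, -0.33 for Phlda3 and -0.28 for Apaf1, with Ei24 at 0.16, and the repair genes by -0.15 for Polk and -0.13 for Ercc5.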

How the results depend on the processing

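The counts of p53 target genes lower with shKdm5c#2 (16 against control, 13 against shKdm5c#1) stayed within 1.5 times under no background correction, the authors' ratios, the mean over probes, removal of the dimmest 25 percent of probes, the median pixel signal, no dye term, and cultures A and C alone. Median centring in place of loess gave 5 and 5, against 2.4 and 1.85 percent of all genes. Cultures B and D alone gave 8 and 8, against 4.09 and 2.52 percent. The higher genes, 2 and 1, came to 0 and 0 in both settings. With shKdm5c#1 against control, the 3 higher genes came to 0 under median centring, without the dye term and in cultures B and D alone, and to 1 in cultures A and C alone. The 3 lower genes came to 0 in the same settings, to 1 in cultures A and C alone and to 1 by the mean over probes. Of all genes, 0.928 percent were lower under median centring, 2.15 percent in cultures B and D alone and 5.03 percent in cultures A and C alone. Against IB10, the called genes (14 with shKdm5c#1, 16 with shKdm5c#2, 12 with control) came to 0, 7 and 1 under median centring, against 4.06, 6.57 and 5.38 percent of all genes. In cultures B and D alone they came to 1 with shKdm5c#1 and 2 with control, against 15.8 and 14.9 percent. The dye subsets and the median pixel signal were added after the data were seen. The subsets hold fewer samples, and otherwise the cause was not tested.

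With each culture left out in turn, the lower genes ran from 12 to 18 for shKdm5c#2 against control, 11 to 13 against shKdm5c#1 and 1 to 4 for shKdm5c#1 against control, and the higher genes from 2 to 2, 1 to 2 and 1 to 3. Without culture D of shKdm5c#2, 2 genes were higher than with shKdm5c#1. For shKdm5c#1 against control, 1 gene was higher without its culture C or control culture B, and 1 was lower without its culture B or C or control culture B or D. Against IB10 the counts ran from 10 to 17 with shKdm5c#1, 10 to 16 with shKdm5c#2 (10 without its culture B) and 8 to 13 with control. Culture letters correlated at r = -0.28 to 0.28 within 12 pairs, over 0.1 in 4, all of these in cultures B or D. Whether cultures of the same letter share a batch was not tested. The fit with the letter as a replicate block called 18 lower genes with shKdm5c#2 against control, 13 against shKdm5c#1, and 3 higher and 3 lower with shKdm5c#1.

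Some genes changed sign against IB10. The mean over probes put Mdm4 at 0.071 with shKdm5c#1 and 0.067 with control (adjusted p = 0.0217 and 0.0305). Cultures B and D alone put Gadd45a at -0.033 with shKdm5c#1, and cultures A and C alone put Sesn2 at 0.15 and Phlda3 at 0.014 with shKdm5c#2.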
